A study of Rattus norvegicus with 12 samples.

Results

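The serine proteases of the epidermis and their inhibitors were described here through 10 genes, chosen by symbol from 25620 genes of the count table and 25524 of the FPKM table. They are the clade B serpins *Serpinb2*, *Serpinb5*, *Serpinb7*, *Serpinb11* and *Serpinb12*, the Kazal-type inhibitor *Spink5*, and the kallikreins *Klk5*, *Klk7*, *Klk8* and *Klk10*. All 10 were present in both tables, and all 10 passed the filter on low counts. The tissue was skin of a full-thickness dorsal wound in male SD rats, young adults when supplied, made diabetic with streptozotocin. Whether a library held tissue of 1 or several rats is not given in the sources used here. The 4 groups were Control (saline), d-SMG (dried mucus gel of the snail *A. fulica*), s-GAG (labelled GAG, the glycosaminoglycan purified from that mucus) and Alg (a commercial alginate dressing), sampled on day 3, 7 and 14. Each group had 1 library per day, 12 libraries altogether, so that no difference within a day has a replicate check.

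In the upper epidermis, keratinocytes flatten, cornify and are shed, and shedding needs proteases that cut the corneodesmosomes between them. *Klk5* and *Klk7* encode the trypsin-like and the chymotrypsin-like kallikrein best known for this cut, and *Spink5* encodes LEKTI, the secreted inhibitor that holds them in check and whose loss causes Netherton syndrome in humans. Clade B serpins act mostly inside cells. *Serpinb2* encodes PAI-2, an inhibitor of urokinase also made by macrophages, and *Serpinb5* encodes maspin, a protein of basal epithelial cells that is not known to block proteases.

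The genes sit in 3 places of the rat genome. The files place the serpins on chromosome 13, the kallikreins on chromosome 1 and *Spink5* on chromosome 18. In the gene order of RefSeq (assembly GRCr8), *Serpinb11*, *Serpinb7* and *Serpinb2* are direct neighbours among protein-coding genes, as are *Serpinb5* and *Serpinb12*, while *Klk7* and *Klk8* are neighbours between *Klk9* and *Klk6*. The 250 bases before an annotated start in RefSeq are shown for 4 serpins of this 1 cluster. These serpins were chosen because 2 of them (*Serpinb7* and *Serpinb11*) had another pattern over the libraries than the other 2. Capitals mark the AP-1 motif TGANTCA and the TATA box TATAAA, searched on both strands; the 2 motifs did not overlap in these windows. The windows are *Serpinb2* at chr13:24055771-24056020, *Serpinb5* at chr13:23499953-23500202, *Serpinb7* at chr13:23910056-23910305 and *Serpinb11* at chr13:23840576-23840825, all on the plus strand of GRCr8, read 5′ to 3′.
Serpinb2: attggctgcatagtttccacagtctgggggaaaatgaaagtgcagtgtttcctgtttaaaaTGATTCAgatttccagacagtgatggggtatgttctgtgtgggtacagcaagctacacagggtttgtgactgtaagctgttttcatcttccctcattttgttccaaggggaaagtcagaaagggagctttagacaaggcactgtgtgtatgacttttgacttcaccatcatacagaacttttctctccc
Serpinb5: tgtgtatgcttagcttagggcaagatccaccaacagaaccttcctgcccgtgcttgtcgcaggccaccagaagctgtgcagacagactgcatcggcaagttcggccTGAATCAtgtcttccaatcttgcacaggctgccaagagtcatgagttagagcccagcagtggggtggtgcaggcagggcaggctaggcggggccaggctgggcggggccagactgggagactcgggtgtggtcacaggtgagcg
Serpinb7: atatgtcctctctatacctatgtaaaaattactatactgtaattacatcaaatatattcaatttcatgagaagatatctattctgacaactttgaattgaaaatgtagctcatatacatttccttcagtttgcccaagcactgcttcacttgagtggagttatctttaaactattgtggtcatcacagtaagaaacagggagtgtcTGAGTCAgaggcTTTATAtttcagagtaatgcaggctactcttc
Serpinb11: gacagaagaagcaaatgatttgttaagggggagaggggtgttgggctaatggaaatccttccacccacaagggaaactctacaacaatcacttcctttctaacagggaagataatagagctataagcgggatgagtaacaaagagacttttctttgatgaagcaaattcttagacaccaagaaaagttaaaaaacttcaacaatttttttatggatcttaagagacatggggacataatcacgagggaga
The AP-1 motif began at position −189 in *Serpinb2*, −144 in *Serpinb5* and −44 in *Serpinb7*, counted back from the start. It was present in 3 of the 8 members with a window and in 6.34% of the 33469 RefSeq windows of the same length. The TATA box was present in 2 of the 8 (*Serpinb7* and *Spink5*) and in 12.9% of all windows. A match of letters is a description, not a bound site. *Serpinb7* held the AP-1 motif and *Serpinb11*, the member most alike to it in pattern, did not. The windows of *Serpinb7* and *Serpinb11* lie inside the span that the RefSeq gene table gives for each gene. The start that they precede is therefore not the first base of that span. Positions in these 2 windows are counted from that later start.

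The libraries held from 13748887 to 38302461 reads on genes. One library stood apart for genes of the epidermis. In the d-SMG library of day 3, the 8 keratinocyte markers found in the table, of 10 in the list (among them *Krt5*, *Krt14*, *Krt1* and *Krt10*), summed to 66.7 CPM, against 4495 to 30961 CPM in the other 11 libraries, and all 8 had reads in all 12 libraries. The same library had the highest sum of 8 skeletal muscle markers, 204971 CPM, against 5137 to 136063 CPM in the others. The sums ranged from 260 to 1453 CPM for 7 macrophage markers, from 5.22 to 6222 CPM for 6 hair follicle markers (*Krt26* was at 0 in 3 libraries) and from 7.31 to 641 CPM for 4 sebaceous gland markers. They ranged from 5891 to 43738 CPM for 6 fibroblast markers, from 10.6 to 158 CPM for 4 neutrophil markers (*Cxcr2* was at 0 in 1 library), from 286 to 747 CPM for 4 endothelial markers and from 499 to 2309 CPM for 4 adipocyte markers (*Lep* was at 0 in 1 library). In bulk tissue, fewer keratinocytes and less RNA per keratinocyte cannot be told apart.

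Compared per length, in FPKM, the 10 genes spanned a wide range of levels. *Spink5* had the highest median over the 12 libraries (69.4 FPKM), followed by *Serpinb5* (22.4) and *Klk7* (20.6). *Serpinb2* (3.54), *Klk8* (1.96), *Klk5* (1.80) and *Klk10* (0.73) were intermediate, and *Serpinb12* (0.45), *Serpinb11* (0.18) and *Serpinb7* (0.14) were lowest. *Serpinb5* and *Klk7*, neighbours in this order, had overlapping ranges of 0.02 to 45.4 and 0.14 to 43.4 FPKM. The highest single value was 219 FPKM for *Spink5* in the Control library of day 14.

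**Figure D1:**
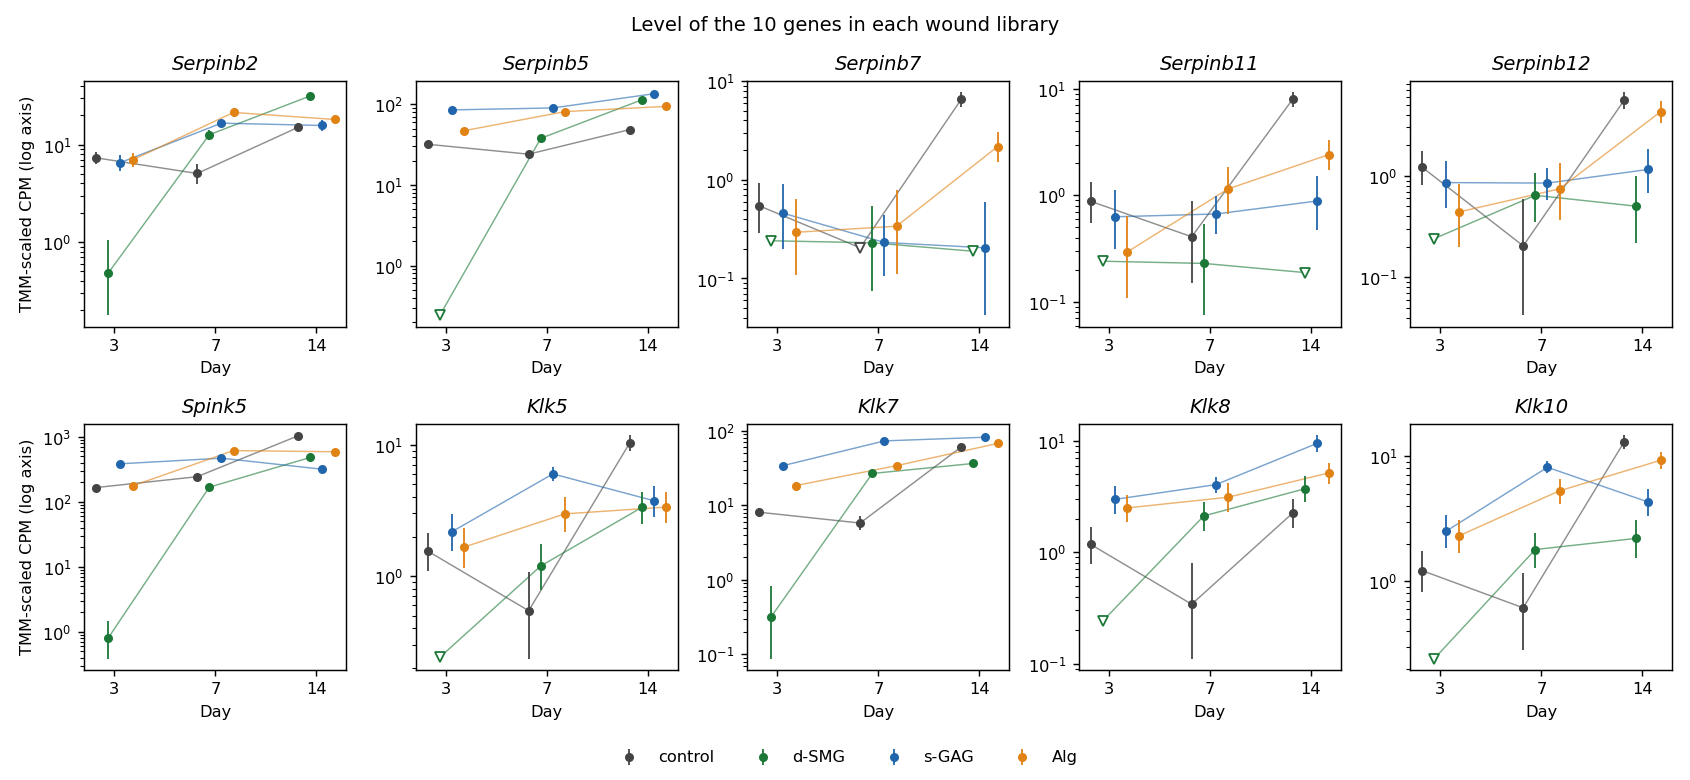
TMM-scaled CPM (log axis) of the 10 genes by day, with 1 point per library, bars for the exact 95% counting interval, and thin lines joining the libraries of 1 treatment, which come from different wounds. Open triangles mark libraries under 3 reads, drawn at the level of 3 reads. The d-SMG library of day 3 is lowest for all 10 genes, and the Control library of day 14 is highest for 6 of them, among them Serpinb7 with 6.54 CPM.

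*Spink5*, the LEKTI gene, was the most abundant member in reads. Its level on day 3 was 165 CPM in the Control library, 0.80 in d-SMG, 383 in s-GAG and 175 in Alg. On day 7 it was 242 CPM in Control, 167 in d-SMG, 468 in s-GAG and 612 in Alg. On day 14 it was 1034 CPM in Control, 480.0 in d-SMG, 316 in s-GAG and 587 in Alg. The highest value, in the day 14 Control library, was 1.69 times the next (Alg, day 7), with counting intervals that did not overlap.

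*Klk7*, the chymotrypsin-like kallikrein, had its highest TMM-scaled CPM in the s-GAG libraries of day 14 and day 7. In FPKM it was highest in Alg on day 14 (43.4), against 43.1 in s-GAG on day 7 and 36.3 in s-GAG on day 14. On day 3 it had 8.10 CPM in Control, 0.32 in d-SMG, 34.3 in s-GAG and 18.5 in Alg. On day 7 the values were 5.80, 26.9, 73.5 and 34.2 CPM in the same order, and on day 14 they were 60.9, 36.6, 82.4 and 67.9 CPM. All 4 libraries of day 14 were above all 4 of day 3.

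*Klk5*, the trypsin-like kallikrein that can activate *Klk7*'s product, was lower than *Klk7* in all 12 libraries in FPKM. On day 3 it had 1.55 CPM in Control, 0 in d-SMG (0 reads, where the floor of 3 reads is 0.24 CPM), 2.18 in s-GAG and 1.66 in Alg. On day 7 it had 0.55, 1.2, 6.0 and 2.98 CPM in the same order, and on day 14 it had 10.3, 3.33, 3.75 and 3.35 CPM. The 3 treated libraries of day 14 lay close together and below the Control library, and the lowest day 14 value was above the highest day 3 value.

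*Klk10*, a kallikrein of stratified epithelia, had 1.22, 0, 2.52 and 2.30 CPM in the Control, d-SMG, s-GAG and Alg libraries of day 3. On day 7 the values were 0.61, 1.79, 8.14 and 5.28 CPM, and on day 14 they were 12.98, 2.20, 4.29 and 9.25 CPM. As with *Klk5*, the Control library was lowest on day 7 and highest on day 14.

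*Klk8*, which encodes the epidermal protease neuropsin, differed from the other kallikreins on day 14. It had 1.18, 0, 2.98 and 2.5 CPM in the Control, d-SMG, s-GAG and Alg libraries of day 3, and 0.34, 2.12, 4.04 and 3.12 CPM in those of day 7. On day 14 it had 2.24, 3.71, 9.48 and 5.15 CPM, so that Control was the lowest library of that day.

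*Serpinb5*, the maspin gene, had 31.9, 0.080, 85.2 and 47.0 CPM in the Control, d-SMG, s-GAG and Alg libraries of day 3. The values were 24.1, 37.9, 90.1 and 81.1 CPM on day 7, and 48.5, 113, 135 and 94.2 CPM on day 14. In FPKM, d-SMG was the highest library of day 14 (45.37), against 36.85 in Alg and 36.45 in s-GAG. Control was the lowest library on day 7 and day 14, and the value of d-SMG on day 3 came from 1 read.

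*Serpinb2*, the PAI-2 gene, had 7.30, 0.48, 6.53 and 6.95 CPM in the Control, d-SMG, s-GAG and Alg libraries of day 3, so that 3 of the 4 libraries lay close together. It had 5.05, 12.6, 16.6 and 21.3 CPM on day 7, and 15.0, 31.5, 15.7 and 18.1 CPM on day 14. The day 14 d-SMG library was the highest of all 12.

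*Serpinb7*, *Serpinb11* and *Serpinb12* had their highest and second highest level in the Control and the Alg library of day 14. *Serpinb7*, whose loss causes a palmoplantar keratosis in humans, had 0.55, 0, 0.46 and 0.29 CPM in the Control, d-SMG, s-GAG and Alg libraries of day 3, and 0.068, 0.23, 0.23 and 0.34 CPM in those of day 7. On day 14 it had 6.54 CPM in Control (134 reads), 0.063 in d-SMG (1 read), 0.20 in s-GAG (3 reads) and 2.17 in Alg (35 reads). The day 14 Control library was 3.01 times the next, the Alg library of the same day.

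*Serpinb11* had 0.88, 0, 0.63 and 0.29 CPM in the Control, d-SMG, s-GAG and Alg libraries of day 3, and 0.41, 0.23, 0.67 and 1.15 CPM in those of day 7. On day 14 it had 8.0 CPM in Control (164 reads), 0 in d-SMG (0 reads, where the floor of 3 reads is 0.19 CPM), 0.89 in s-GAG and 2.42 in Alg. *Serpinb12*, an inhibitor of trypsin-like proteases, had 1.22, 0, 0.86 and 0.44 CPM on day 3 and 0.20, 0.64, 0.85 and 0.74 CPM on day 7 in the same order. On day 14 it had 5.56 CPM in Control, 0.50 in d-SMG, 1.16 in s-GAG and 4.28 in Alg, where the counting intervals of Control and Alg overlapped.

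The next question was how each treated wound compared with the saline wound of the same day. On day 3, 8 of the 10 genes were at least 4-fold lower in the d-SMG library than in Control, and none was 4-fold higher. Of all 15846 genes compared in this pair, 5.33% were at least 4-fold lower and 2.52% at least 4-fold higher. *Spink5* (3937 reads in Control and 10 in d-SMG) had a log2 ratio of −7.68 (counting interval −8.74 to −6.80). *Serpinb5* (761 reads and 1 read) was at least 132-fold lower. *Klk7* had a log2 ratio of −4.65 (interval −6.55 to −3.28), and *Serpinb2* one of −3.92 (interval −5.39 to −2.77). *Klk5*, *Klk8*, *Klk10*, *Serpinb7*, *Serpinb11* and *Serpinb12* had 0 reads in the d-SMG library and 13 to 37 in Control. The bounds for *Serpinb7* and *Serpinb11* were below 4-fold, since the Control library held only 13 and 21 reads of them. This is the library in which the keratinocyte markers were at 66.7 CPM, compared with 5319 CPM in the Control library of that day, and their part in the result was not tested.

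On the same day, 1 of the 10 genes was at least 4-fold higher in s-GAG than in Control, where 4.85% of 16426 genes were, and 0 were 4-fold lower, where 1.92% were. The gene was *Klk7*, with a log2 ratio of 2.08 (interval 1.85 to 2.32). In the Alg library, 0 of the 10 were past 4-fold in either direction, where 2.86% of 16487 genes were higher and 2.10% lower.

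On day 7, the kallikreins were higher in all 3 treated libraries than in the Control library. In s-GAG, 5 of 10 genes were at least 4-fold higher, where 4.19% of 16863 genes were, and 0 were 4-fold lower, where 3.67% were. They were *Klk10* (log2 ratio 3.73, interval 2.79 to 4.87), *Klk7* (3.66, interval 3.35 to 3.99), *Klk8* (3.57, interval 2.31 to 5.21), *Klk5* (3.46, interval 2.46 to 4.69) and *Serpinb12* (2.05, interval 0.38 to 4.40). In Alg, 5 of 9 genes with enough reads were at least 4-fold higher, where 2.58% of 15874 genes were, and 0 were 4-fold lower, where 2.55% were. They were the same 4 kallikreins, from 2.45 for *Klk5* to 3.19 for *Klk8*, and *Serpinb2* (2.08, interval 1.71 to 2.46). In d-SMG, 2 of 9 genes were, where 1.34% of 16164 genes were, namely *Klk8* (2.63, interval 1.31 to 4.32) and *Klk7* (2.21, interval 1.88 to 2.56).

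The 3 comparisons of day 7 share the 1 Control library, which had the lowest level of all 4 kallikreins on that day (5 to 85 reads). Its keratinocyte markers summed to 4495 CPM, against 8808 CPM in d-SMG, 15687 CPM in Alg and 19123 CPM in s-GAG, and their part in the result was not tested. Per 1000 CPM of the basal keratins *Krt5* and *Krt14*, *Klk8* was 0.098 CPM in the Control library of day 7, the lowest of the 11 libraries other than d-SMG on day 3, whose median was 0.32. *Klk7* per 1000 CPM of the same keratins was also lowest there, at 1.67 CPM, with a median of 2.82. *Klk5* and *Klk10* were not: they had 0.157 and 0.177 CPM per 1000 there, above 0.128 and 0.146 in s-GAG on day 14. Within day 7, Control was still the lowest library for both genes per *Krt5* and *Krt14*. *Klk5* had 0.178 in d-SMG, 0.246 in Alg and 0.48 in s-GAG, and *Klk10* had 0.267, 0.435 and 0.652 in the same order. Per 1000 CPM of *Krt1* and *Krt10*, *Klk8* had 5.05 CPM in the Control library of day 7. The values of that day were 11.3 in d-SMG, 8.17 in Alg and 16.2 in s-GAG. Over the 11 libraries *Klk8* was lowest in the Control library of day 14, at 0.56. *Klk5* per *Krt1* and *Krt10* was not lowest in Control on day 7, with 8.08 CPM against 6.40 in d-SMG and 7.82 in Alg. *Spink5* moved less than the kallikreins on day 7, with log2 ratios of −0.53 in d-SMG, 0.95 in s-GAG and 1.33 in Alg.

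**Figure D2:**
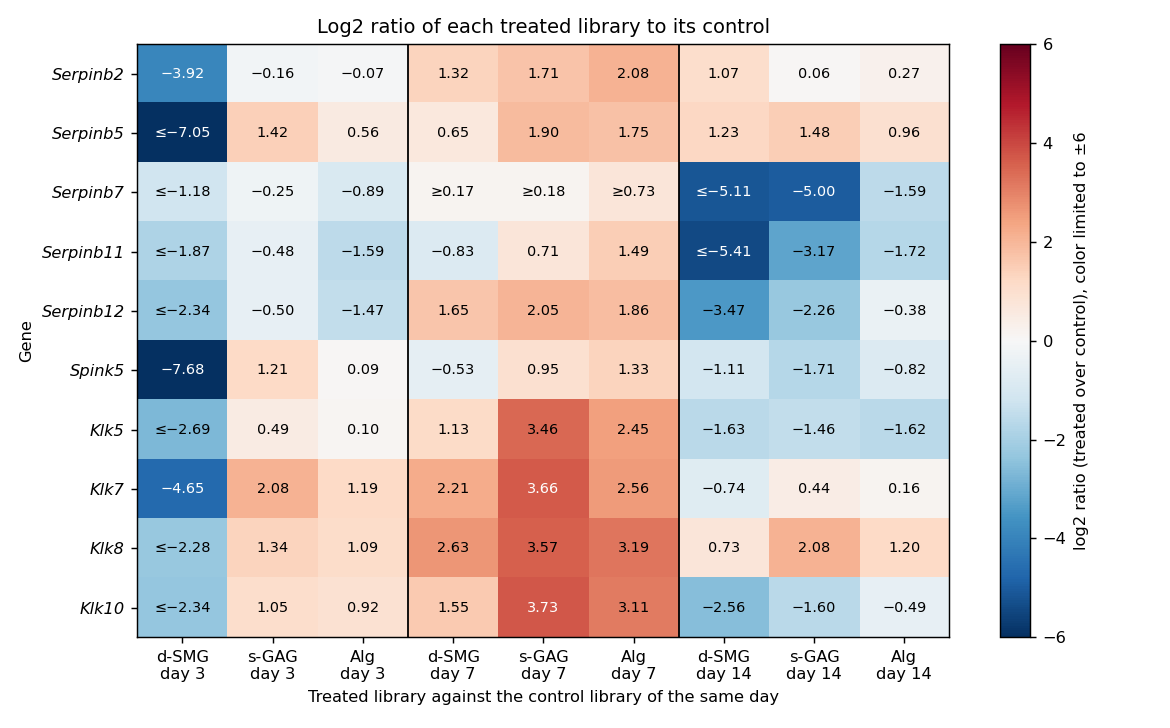
Log2 ratio of each treated library to the Control library of the same day (columns) for the 10 genes (rows), in color limited to ±6; ≤ and ≥ mark bounds from libraries under 3 reads. The first column is negative throughout, the kallikreins are positive on day 7 with up to 3.73, and Serpinb7 and Serpinb11 range from −5.41 to −3.17 on day 14 in d-SMG and s-GAG.

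On day 14, the 3 scarce serpins were lower in the d-SMG and s-GAG libraries than in Control. In d-SMG, 4 of the 10 genes were at least 4-fold lower, where 4.82% of 16395 genes were, and 0 were 4-fold higher, where 3.09% were. *Serpinb11* was at least 42.4-fold lower and *Serpinb7* at least 34.6-fold lower. *Serpinb12* had a log2 ratio of −3.47 (interval −4.71 to −2.44) and *Klk10* one of −2.56 (interval −3.11 to −2.05). In contrast, *Serpinb2* (1.07), *Serpinb5* (1.23) and *Klk8* (0.73) had positive log2 ratios.

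In s-GAG, 3 of the 10 genes were at least 4-fold lower than in Control on day 14, against a large background of 13.2% of 16517 genes. They were *Serpinb7* (log2 ratio −5.00, interval −7.29 to −3.42, from 3 and 134 reads), *Serpinb11* (−3.17, interval −4.11 to −2.36) and *Serpinb12* (−2.26, interval −3.09 to −1.52). *Klk8* was at least 4-fold higher (2.08, interval 1.59 to 2.59), where 11.3% of all genes were. When libraries were scaled by size alone, *Klk8* was not past 4-fold (1.63), and *Spink5* (−2.16) and *Klk10* (−2.04) were past it, lower than Control. The all-gene median of the log2 ratio was then −0.48, and the share of all genes past 4-fold under this scaling was not counted. In Alg, 0 of the 10 genes were past 4-fold, where 3.15% of 16326 genes were higher and 3.69% lower. The Alg log2 ratios were −1.59 for *Serpinb7*, −1.72 for *Serpinb11* and −0.38 for *Serpinb12*. The median log2 ratio of the 10 genes on day 14 was −1.37 in d-SMG, −1.53 in s-GAG and −0.43 in Alg, where the medians of all genes were −0.015, −0.035 and −0.025.

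With the 12 libraries in 1 model of treatment and day, none of the 10 genes passed an FDR of 0.05 in the quasi-likelihood test of edgeR for any treatment. The same was true of all 16110 genes tested (0% called), with an unadjusted p below 0.05 for 207 genes for d-SMG, 1465 for s-GAG and 492 for Alg against Control. *Serpinb11* for d-SMG was the 1 such gene among the 10. Without the d-SMG library of day 3, edgeR called 57 genes for s-GAG, none of them among the 10. For d-SMG against Control, the fitted log2 fold change lay below 0 for 8 of the 10 genes (median −1.53), where 46.3% of all genes lay above 0 (median −0.030). The median of the members was −0.81 without the d-SMG library of day 3, with 4 of the 10 above 0. Without the Control library of day 14 it was −0.50, over 9 genes, since *Serpinb7* did not pass the filter. The largest was that of *Serpinb11* (−4.44 ± 1.31 SE, adjusted p = 1), a gene with 0 reads in 2 of the 3 d-SMG libraries, so that its fitted value is no bound. Leaving out 1 library or day gave −9.14 to −2.46 for it, with −4.12 without the d-SMG library of day 3 and −3.21 without the Control library of day 14. *Serpinb7* had −3.27 ± 1.48, and −6.18 to −1.99 in the fits that kept it. *Klk8* (0.38 ± 0.95), *Serpinb2* (0.073 ± 0.86) and *Serpinb5* (−0.036 ± 1.2) were near 0, and without that library they were 1.2, 0.91 and 0.89, with *Klk7* going from −0.32 to 0.50. The DESeq2 Wald test also called 0 of the 10 genes for each treatment, where it called 0.0559%, 1.79% and 0.546% of all genes for d-SMG, s-GAG and Alg.

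For s-GAG against Control, *Klk8* (2.04 ± 0.91, adjusted p = 0.55, edgeR) and *Klk7* (1.86 ± 0.96, adjusted p = 0.57, edgeR) had the largest fitted log2 fold changes above 0 among the 10 genes, and *Serpinb7* had the lowest, −1.73 ± 1.29. *Klk8*, *Klk7* and *Serpinb5* were above Control on 3 of the 3 days, both in s-GAG and in Alg. In s-GAG, *Klk7* on day 14 was not above Control when libraries were scaled by their size alone (−0.013). How many of all genes lay above Control on all days was not counted. The median of the 10 genes was 0.49 for s-GAG and 0.40 for Alg, a direction that rested on the Control library of day 7. Without it the medians were −0.10 and −0.14, and without the Control library of day 14 they were 1.28 and 0.67, over 9 genes.

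Over time, all 10 genes had higher fitted levels on day 14 than on day 3, and none passed the FDR. The fitted log2 fold changes, with 4 libraries a day, ran from 1.61 ± 1.07 SE for *Serpinb5* to 2.60 ± 0.87 SE for *Klk10*, with a median of 2.16. Of all 16110 genes, 51.3% lay above 0. Their median was 0.013, 0% were called and 787 had an unadjusted p-value under 0.05 in edgeR. The unadjusted p-value was under 0.05 for 5 of the 10 genes, namely *Klk7*, *Klk10*, *Serpinb2*, *Klk5* and *Serpinb12*, and the adjusted p-values of the 10 genes in edgeR were 0.89. DESeq2 called 0 of the 10 and 0.242% of all genes. All 10 were also higher on day 7 than on day 3 (median 1.06) and on day 14 than on day 7 (median 1.13), where 49.8% and 51.1% of all genes were. Again edgeR called 0 of 10 and 0% of all genes in both. DESeq2 called 0 of 10 in both, and 0% and 0.0435% of all genes. Unadjusted, 0 of the 10 had a p-value under 0.05 in edgeR in these 2 comparisons, and 284 and 494 of all genes did.

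The d-SMG library of day 3 carried part of this difference. Without it, the median of the 10 genes for day 14 against day 3 was 1.80, from 0.86 ± 0.34 SE for *Serpinb5* to 2.21 ± 0.79 SE for *Klk10*. For day 7 against day 3, 8 of the 10 genes were then higher, with a median of 0.70, where the median of all genes was −0.011. Without the Control library of day 14, *Serpinb11* had a fitted log2 fold change of 1.08 for day 14 against day 3, down from 2.17, and *Serpinb7* did not pass the filter. The unadjusted p-value was then under 0.05 for 0 of the 9 genes left, with a median of 1.73. It was under 0.05 for 3 genes without the Alg library of day 3, and for 8 without the d-SMG library of day 7, the s-GAG library of day 3 or that of day 14. How many of all genes had such a p-value in these refits was not counted, so these counts have no background. *Serpinb2*, *Klk5* and *Klk7* were higher in all 4 libraries of day 14 than in any of day 3, with and without the d-SMG library of day 3. Such a separation was found for 0.956% of all genes with 4 libraries a day and for 1.1% without that library, and the opposite one for 0 of the 10 genes and for 0.646% and 0.9% of all genes. Without the Control library of day 14 as well, *Serpinb5* and *Klk8* joined them, 5 of the 10 where 4.85% of all genes were so separated, and 5.36% were in the opposite direction, with 0 of the 10. The keratinocyte markers summed to between 66.7 and 12440 CPM on day 3 and between 11321 and 30961 CPM on day 14, and their part in the result was not tested.

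**Figure D3:**
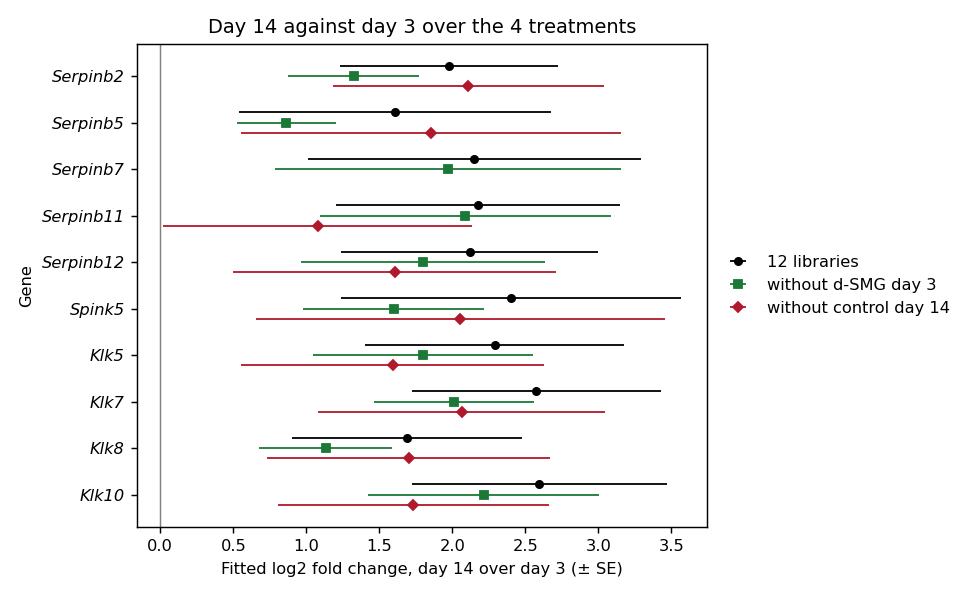
Fitted log2 fold change of day 14 over day 3 (± SE) for the 10 genes, with all 12 libraries, without the d-SMG library of day 3, and without the Control library of day 14 (Serpinb7 was then not fitted). All values lie above 0, and the value of Serpinb11 is lowest without the Control library, at 1.08.

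The levels were also set against those of the keratins. Epidermal cells make *Krt5* and *Krt14* in the basal layer and *Krt1* and *Krt10* once they leave it. The sum of *Krt1* and *Krt10* was 3983 CPM in the Control library and 3131 CPM in the Alg library of day 14, against 59.3 CPM in d-SMG and 210 CPM in s-GAG of that day. The sum of *Krt5* and *Krt14* ran the other way, with 3791 CPM in Control, 10888 CPM in Alg, 14923 CPM in d-SMG and 29359 CPM in s-GAG. The summed level of *Serpinb7*, *Serpinb11* and *Serpinb12* was 20.1 CPM in Control and 8.88 CPM in Alg of day 14, and between 0.57 and 2.64 CPM in the other libraries except d-SMG on day 3, which had 0 reads of all 3.

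Per 1000 CPM of *Krt1* and *Krt10*, this sum was 5.05 CPM in the Control library of day 14, 2.84 in Alg, 9.54 in d-SMG (9 reads) and 10.7 in s-GAG. On day 7 it was 10.1 in Control (10 reads), 5.90 in d-SMG, 7.01 in s-GAG and 5.86 in Alg, and on day 3 it was 5.86 in Control, 6.15 in s-GAG and 5.27 in Alg. Over these 11 libraries, *Serpinb5* spanned 5.61-fold in CPM and 2.78-fold per *Krt5* and *Krt14*, from 4.6 CPM per 1000 in s-GAG on day 14 to 12.8 in Control on day 14. *Klk8* (27.8-fold in CPM, from 5 reads at the lowest) and *Klk7* (14.2-fold) also spanned less per *Krt5* and *Krt14*, 6.03-fold and 9.64-fold. Per *Krt1* and *Krt10*, *Serpinb5*, *Klk8* and *Klk7* spanned more, 157-fold, 111-fold and 40.3-fold. *Serpinb7* (104-fold in CPM, from 1 read at the lowest) and *Serpinb12* (27.2-fold) spanned less per *Krt1* and *Krt10*, 2.36-fold and 6.20-fold. Per *Krt5* and *Krt14* they spanned more, 409-fold and 43.5-fold. *Serpinb11* had 0 reads in d-SMG on day 14, so that no fold span can be given for it. Per 1000 CPM of *Krt1* and *Krt10* it ran from 0 there to 6.06 CPM in Control on day 7 (6 reads). *Spink5*, *Serpinb2* and *Klk5* did not span less per either pair of keratins. *Spink5* spanned 6.26-fold in CPM, 25.3-fold per *Krt5* and *Krt14* and 43.2-fold per *Krt1* and *Krt10*. *Serpinb2* spanned 6.24-fold, 7.42-fold and 141-fold in the same order, and *Klk5* 18.9-fold, 21.3-fold and 52.5-fold. *Klk10* spanned 21.1-fold, 23.4-fold and 13.8-fold, less per *Krt1* and *Krt10* only.

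As a description over the 11 libraries without d-SMG on day 3, Pearson's r of log2(CPM + 1) with *Krt1* and *Krt10* was 0.95 for *Serpinb12*, 0.91 for *Serpinb7* and 0.91 for *Serpinb11*, and 0.075 for *Serpinb5*. With *Krt5* and *Krt14* it was 0.91 for *Serpinb5*, 0.91 for *Klk8*, 0.68 for *Klk7* and −0.35 for *Serpinb7*. *Serpinb2* had 0.15 with *Krt1* and *Krt10* and 0.62 with *Krt5* and *Krt14*. *Klk10* (0.76), *Klk5* (0.59) and *Spink5* (0.56) lay between the 2 groups of serpins in their r with *Krt1* and *Krt10*. These values share the libraries and their scaling, and the 2 libraries with the most *Krt1* and *Krt10* were also the 2 with the most of the scarce serpins.

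**Figure D4:**
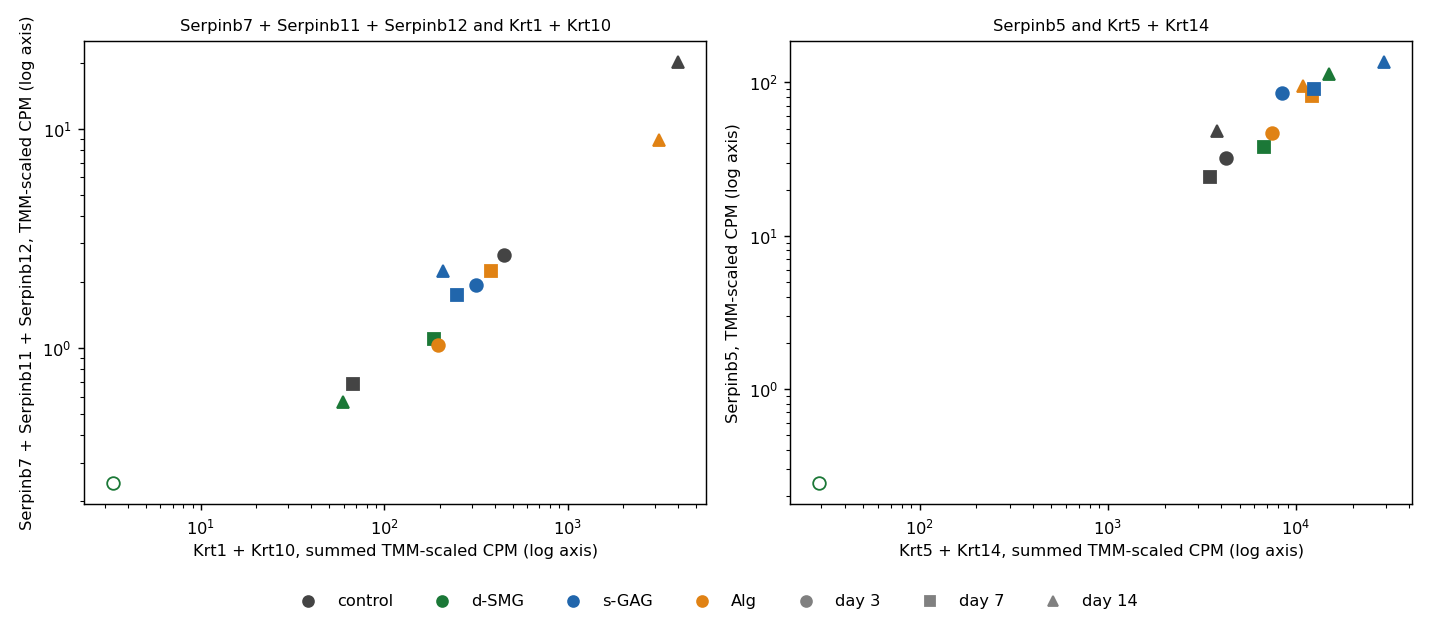
Left, summed CPM of Serpinb7, Serpinb11 and Serpinb12 against summed CPM of Krt1 and Krt10; right, CPM of Serpinb5 against summed CPM of Krt5 and Krt14, with 1 point per library on log axes and open points for libraries under 3 reads, drawn at 3 reads. The Control library of day 14 is the highest on the left (20.1 CPM) and lies at 48.5 CPM on the right, where the highest is 135 CPM.

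The RNA level of kallikreins relative to *Spink5* was read within each library, so that it does not depend on the scaling between libraries. Protein levels and protease activity were not tested. The FPKM of *Klk5*, *Klk7* and *Klk8* together, divided by that of *Spink5*, was 0.19 in the Control library of day 3, 0.29 in s-GAG and 0.37 in Alg. In d-SMG it was 1.08, but with 10 reads of *Spink5* and 4 of the kallikreins. On day 7 it was 0.078 in Control, 0.51 in d-SMG, 0.51 in s-GAG and 0.19 in Alg, and on day 14 it was 0.20, 0.26, 0.86 and 0.37 in the same order. Control had the lowest ratio on all 3 days, and s-GAG the highest on day 14. *Klk7* made up 71.0% to 87.0% of the 3 kallikreins' FPKM in the 11 libraries other than d-SMG on day 3.

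**Figure D5:**
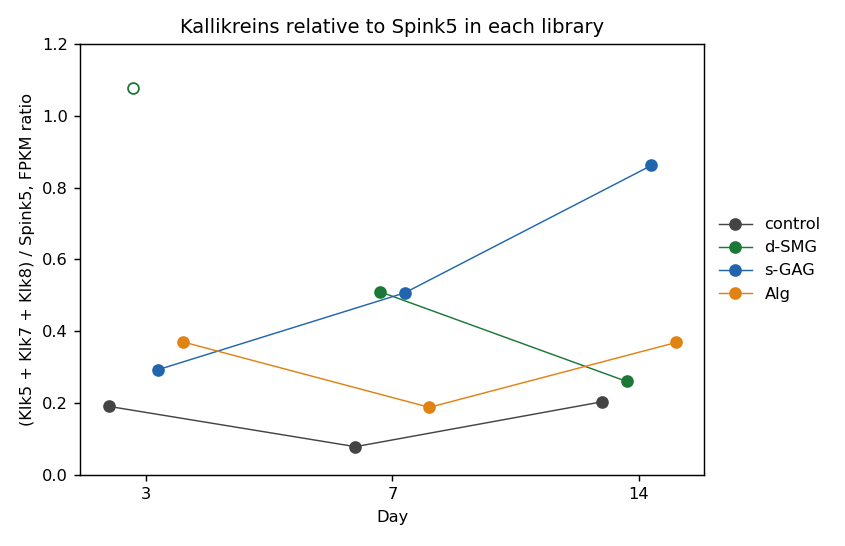
Ratio of the summed FPKM of Klk5, Klk7 and Klk8 to the FPKM of Spink5 by day, with 1 point per library; the open point is the d-SMG library of day 3, with 10 reads of Spink5. The Control library is lowest on each day, from 0.078 to 0.20, and s-GAG reaches 0.86 on day 14.

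Among themselves, the 45 pairs of the 10 genes had a median r of 0.72 over 12 libraries and 0.63 over 11 without d-SMG on day 3, as a description. Over the 11 libraries the pair most alike was *Serpinb7* and *Serpinb11* (0.96), neighbours on chromosome 13, followed by *Serpinb7* and *Serpinb12* (0.94) and *Serpinb5* and *Klk8* (0.92). The pair least alike was *Serpinb5* and *Serpinb7* (−0.045). Of the genes outside the 10, those most alike in pattern over 12 libraries were *Krt77*, *Flg2* and *Lipn* for *Serpinb7* (r from 0.94 to 0.97), *Krt77*, *Flg2* and *Cyp2j16* for *Serpinb11* (0.92 to 0.96) and *Kprp*, *Nccrp1* and *Krt10* for *Serpinb12* (0.93 to 0.96). For *Serpinb5* they were *Calml3*, *Perp* and *Ckmt1* (all at least 0.99), and for *Serpinb2* *Ankrd22*, *Tmem229a* and *Tmem154* (all 0.93, and 0.80 to 0.82 without d-SMG on day 3). For *Klk5* they were *Arl4d*, *Klk11* and *Icoslg* (all 0.93), for *Klk7* *Cst6*, *Myo5b* and *Abca12* (0.97 to 0.98), for *Klk8* *Defb1*, *Ubxn11* and *Aspg* (0.98 to 0.99), and for *Klk10* *Klk11*, *Fam240b* and *Eps8l1* (0.94 to 0.97). For *Spink5* they were *Sec14l4*, *Cpa4* and *Clca5* (0.98 to 0.99), a likeness that dropped to between 0.91 and 0.95 without d-SMG on day 3.

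The other genes of the pathway were taken from 4 lists, and none passed the FDR in edgeR in any of the 6 comparisons. For day 14 against day 3, where 51.3% of all genes lay above 0, 3 of 4 other kallikreins tested were higher (7 of 9 were in the table). Their median log2 fold change was 1.60. *Klk6*, a trypsin-like kallikrein, had 2.51 ± 0.78 SE, with 3.82 CPM in Control and 11.1 in s-GAG on day 3 and 18.0 and 35.5 CPM on day 14. *Klk1*, tissue kallikrein of glands and kidney, had −2.34 ± 0.80 SE, and its reads may be shared with close paralogs. Of 7 other epidermal inhibitors tested, of 10 in the list, all 7 were higher on day 14, with a median of 1.45. *Cst6*, which encodes the cysteine protease inhibitor cystatin M/E, had 2.97 ± 0.74 SE, the largest of the 7, and *Spint2*, an inhibitor of membrane serine proteases, had 1.45 ± 0.49 SE.

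Of 9 other clade B serpins tested, of 13 in the list, 7 were higher on day 14, with a median of 0.63, where 51.3% of all genes were higher. The 2 most abundant, *Serpinb6a* (−0.80 ± 0.38 SE) and *Serpinb1a* (0.63 ± 0.41 SE), are made in many cell types and belong to families of close paralogs, and in the d-SMG library of day 3 they held 191 and 44.4 CPM. Of the 11 activators, targets and receptors, 8 were higher on day 14, with a median of 2.0. *Dsg1*, a desmosomal cadherin cut during shedding, had 2.09 ± 1.19 SE, with 0.48 CPM in d-SMG on day 3 and 272 CPM in Alg on day 14. *St14*, which encodes the membrane protease matriptase, had 0.95 ± 0.51 SE, with 25.2 CPM in d-SMG on day 3 and 422 CPM in s-GAG on day 14.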

How the data were processed

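Wound tissue was measured by stranded RNA sequencing after rRNA depletion in 12 libraries, 1 for each of 4 treatments and 3 days. The authors deposited raw read counts per gene, without normalization, for 25620 genes, and FPKM values (fragments per kilobase of transcript, scaled to depth) for 25524 genes. The submitters' processing notes name bcl2fastq, FastQC, TopHat2 and edgeR, without roles; the genome build, the counting tool and its use of strand are not given in the sources used here. In both the count and the FPKM file, 1 further column matches no described sample and was not used.

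Counts were scaled with TMM (edgeR 4.0.16, R 4.3.3) and given as CPM (counts scaled to a common library size). Treatment and day were fitted as additive terms on the 16110 genes kept by filterByExpr (6 residual degrees of freedom, quasi-likelihood test, Benjamini-Hochberg adjustment over all genes, FDR 0.05). The days stand in for replicates of a treatment, and p-values measure only the spread between these libraries. The SE of a fitted log2 fold change was derived from the quasi-likelihood test. It is the absolute log2 fold change divided by the square root of the F statistic. Within a day, libraries were compared 1 against 1 without a test; a gene was counted at a fold of 4 with at least 10 reads in the pair, and a library under 3 reads was set to 3 reads, which makes the ratio a bound. Intervals are exact (Clopper-Pearson, 95%) and cover counting error only. The fit was tested on simulated data with a dispersion of 0.1, below the common dispersion of 0.25 estimated from these libraries, so that the test does not show how many changes of a given size the fit would miss here. DESeq2 1.42.0, other scalings, filters, terms and left-out libraries or days were tried as alternatives. Figures were drawn with matplotlib 3.10.9.

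All 10 members are named. Of each other list, the 2 genes with the highest mean CPM are named, because none passed the FDR. For each member the 3 genes most alike in pattern are named, without provisional symbols. The members and lists were chosen with earlier results of these data known.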

Additional observations from a re-analysis of the deposited data

Results flagged for a closer look

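For 3 genes, the treated library lay at least 4-fold from the Control library in opposite directions on 2 days. How many of all genes did so was not counted. Taken singly, 5.33% of all genes were at least 4-fold lower in d-SMG on day 3 and 1.34% higher on day 7. In s-GAG, 4.19% were higher on day 7 and 13.2% lower on day 14. With 1 library per group and day the difference between the days was not tested. *Klk7* in d-SMG had a log2 ratio of −4.65 on day 3 and 2.21 on day 7, and *Klk8* in d-SMG had −2.28 on day 3, a bound from 0 and 28 reads, and 2.63 on day 7. *Serpinb12* in s-GAG had 2.05 on day 7 (33 reads against 3 in Control) and −2.26 on day 14. On day 3 the d-SMG library had the lowest sum of keratinocyte markers of that day, 66.7 CPM, and on day 7 the Control library had the lowest, 4495 CPM. Their part in these values was not tested.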

How the results depend on the processing

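None of the 10 genes passed the FDR in any of the 6 comparisons across libraries under any alternative: RLE size factors, the library size, no low-count filter, DESeq2, only the groups compared, no replicate block (the day term left out) or no treatment term, and leaving out each library or each day. For d-SMG against Control, *Serpinb5* changed sign, to 0.30 with the library size and 0.53 with no replicate block, and *Serpinb2* to −0.039 with only the groups compared. When 1 library or day was left out, the log2 fold changes ranged from −0.99 to 1.19 for *Serpinb2*, −1.29 to 1.01 for *Serpinb5*, −1.55 to 0.50 for *Klk7* and −0.64 to 1.48 for *Klk8*, and the cause was not tested. Within a day, a pseudocount of 1 on the deposited FPKM, which shrinks ratios of low genes, left 3 of 8 genes past 4-fold for d-SMG on day 3, 1 of 2 for d-SMG, 1 of 5 for s-GAG and 1 of 5 for Alg on day 7, 0 of 4 for d-SMG and 1 of 4 for s-GAG on day 14, and 0 of 1 for s-GAG on day 3. A minimum of 50 reads left 4 genes for d-SMG on day 3. These counts take both directions together, and the shares of all genes past 4-fold under these settings were not counted. When libraries were scaled by size alone, the all-gene median of the log2 ratio shifted to between −0.48 (s-GAG, day 14) and 0.31 (d-SMG, day 7). The signs of *Serpinb2* in Alg on day 3 and in s-GAG on day 14, and of *Klk7* in s-GAG on day 14, then turned. *Serpinb7*, with 220 reads over the 12 libraries, is the member with the fewest, and it did not pass the filter in some of the fits that left out a library or day.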
